A study of Mus musculus with 6 samples.

Results

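The genes described here make cholesterol and fatty acids: 8 genes of the mevalonate pathway, 11 of the squalene and sterol steps, 5 regulators and carriers, and 8 of fatty acid synthesis and desaturation. They were chosen by name from the known pathways, with earlier results of these data known. All 32 were found among the 23420 genes of the deposited count table, 31 by their own symbol and Msmo1 by its older symbol Sc4mol, and all 32 passed the filter on low counts. The study sequenced mRNA from keratinocytes of mouse epidermis, the barrier-forming cells of skin, grown in culture. All 6 samples were homozygous for floxed Gata6 alleles (Gata6 fl/fl), kept in low-calcium E media to passage 8 to 10 and given 1 µM 4-hydroxytamoxifen for 6 hours. The 3 labelled iKO (induced knockout) carried K14CreERT2, a Cre recombinase that tamoxifen switches on and that basal keratinocytes express from the keratin 14 promoter, and the 3 labelled WT did not. The labels do not say whether samples of a group came from separate animals or cultures, so p-values reflect only how these libraries differ among themselves, and that spread may be technical.

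Cholesterol is built from acetyl-CoA through mevalonate, isoprenoids and squalene, and the ring system formed from squalene is then trimmed and reduced step by step. Fatty acids start from the same acetyl-CoA, which is carboxylated, polymerised, elongated and desaturated. Most of these genes are targets of the sterol regulatory element binding proteins SREBP1 and SREBP2, transcription factors held in the endoplasmic reticulum by Scap and Insig while sterols are plentiful and released to the nucleus when sterols fall. In epidermis, cholesterol and fatty acids made by keratinocytes are raw material for the lipid layers of the skin barrier.

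Library features that touch these genes were as follows. Reads assigned to genes ranged from 21943467 to 83337263 per library, and WT 3 (79055307) and iKO 33 (83337263, named after the number in its column) were the deepest. Levels of Gata6, the gene the study targets, ran opposite to the labels, at 0.519 to 5.37 CPM (counts scaled to library size with TMM factors) in the libraries labelled WT and 14.2 to 21.02 CPM in those labelled iKO. Groups are therefore called by their labels, and every difference below is labelled iKO relative to labelled WT. Xist, the RNA of the inactive X chromosome, stood at 605 to 889 CPM in the libraries labelled WT and 0.0824 to 2.62 CPM in those labelled iKO, so sex and genotype label cannot be told apart. Reads that aligned to more than 1 place made up 29.5% to 30.5% of counts in the libraries labelled WT and 21.7% to 26.5% in those labelled iKO. The keratinocyte markers Krt5 and Krt14 were abundant in all 6 libraries, at 14719 to 23621 and 12916 to 21993 CPM. The 8 keratinocyte markers summed to 33613 to 46530 CPM in the libraries labelled WT and 35335 to 51562 CPM in those labelled iKO. Of the 8, 3 had positive and 5 negative fold changes, with 0 called by edgeR. Trp63 was lower in the libraries labelled iKO with no overlap (191 to 205 CPM, against 307 to 331 CPM). Cdh1 was higher there with no overlap (563 to 725 CPM, against 419 to 442 CPM). Both were picked after their values were seen, and 21.9% of all tested genes had groups that did not overlap. Markers of other cells summed to far less. For the libraries labelled WT and iKO in turn, the 8 fibroblast markers summed to 0.692 to 2.64 and 0.959 to 3.38 CPM with Dcn and Lum at 0, and the 7 immune markers to 0.507 to 2.08 and 0.512 to 0.978 CPM with Cd207 at 0. The 7 melanocyte markers summed to 6.08 to 11.9 and 5.69 to 8.47 CPM with Dct at 0. The 5 endothelial markers summed to 9.87 to 18.99 and 7.58 to 8.99 CPM, with no overlap and with Emcn at 0. Kdr made up most of the endothelial sum, and its own groups overlapped, at 6.13 to 16.7 and 5.85 to 6.18 CPM.

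The first question was how strongly each step was expressed in these cells. On a scale of CPM per kb of exon, Scd2, a stearoyl-CoA desaturase that makes monounsaturated fatty acids, had the highest level, 195 ± 79.8 in the libraries labelled WT and 238 ± 77.7 in those labelled iKO (SD, n = 3). Hmgcs1, the HMG-CoA synthase that opens the committed part of the mevalonate pathway, followed at 129 ± 45.0 and 94.9 ± 30.7. By the mean of the libraries labelled WT, next came Idi1, the isomerase that interconverts the isoprenoid building blocks, at 100.2 ± 41.0 and 80.3 ± 24.2. Levels of these 3 genes fell in that order within each of the 6 libraries, although the SD ranges of the group means overlapped in the libraries labelled WT. Acly, which releases cytosolic acetyl-CoA from citrate, stood at 85.8 ± 18.5 CPM per kb in the libraries labelled WT and 95.3 ± 25.4 in those labelled iKO, and it lay above Idi1 in WT 2 and in all 3 libraries labelled iKO. Cyp51, the lanosterol demethylase, and Fdps, the farnesyl diphosphate synthase, stood at 71.4 ± 23.6 and 69.9 ± 17.0 CPM per kb in the libraries labelled WT.

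At the low end, Ggps1, which makes geranylgeranyl diphosphate for protein prenylation on a side branch, stood at 4.77 ± 0.793 CPM per kb in the libraries labelled WT. Tm7sf2, a sterol reductase that acts after Cyp51, was the lowest of the 32 at 0.515 ± 0.0927 in the libraries labelled WT and 0.973 ± 0.224 in those labelled iKO. Exon lengths join all annotated isoforms, which lowers the level of genes with many of them, such as Acaca (17074 bases) and Lss (10787 bases).

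**Figure D1:**
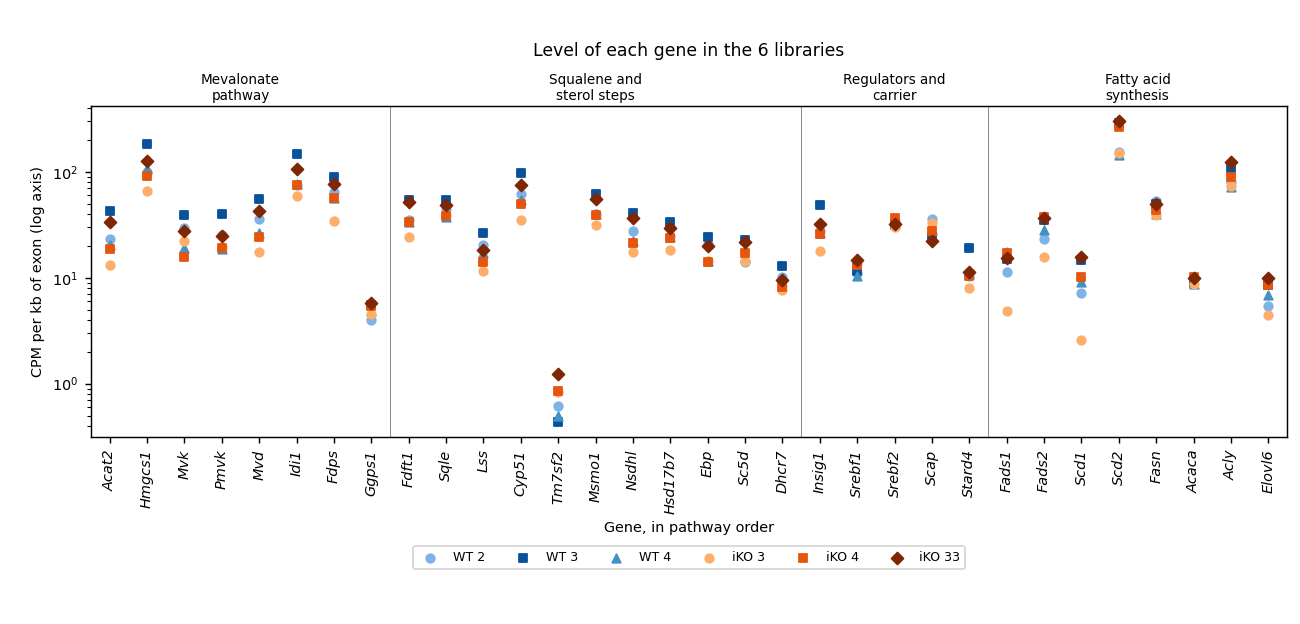
Level of each gene in CPM per kb of exon (log axis) in each of the 6 libraries, with genes in pathway order on the horizontal axis. Scd2 is the highest gene in every library, Hmgcs1, Idi1 and Acly follow in an order that differs between libraries, Tm7sf2 lies near 1 CPM per kb or below, and in most mevalonate and sterol genes the square of WT 3 is the highest point.

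The same libraries stood at the top or the bottom for most of these genes. WT 3 held the highest level of 17 of the 19 mevalonate and sterol genes (89.5%), against 21.0% of all tested genes. iKO 3 held the lowest level of 12 of the 19 (63.2%), against 19.8% of all tested genes. Across all 32 genes the highest level fell in WT 3 for 19, in iKO 33 for 7, in iKO 4 for 3, in WT 2 for 2, in WT 4 for 1 and in iKO 3 for 0. The lowest level fell in iKO 3 for 20 of the 32 genes (62.5%).

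**Figure D2:**
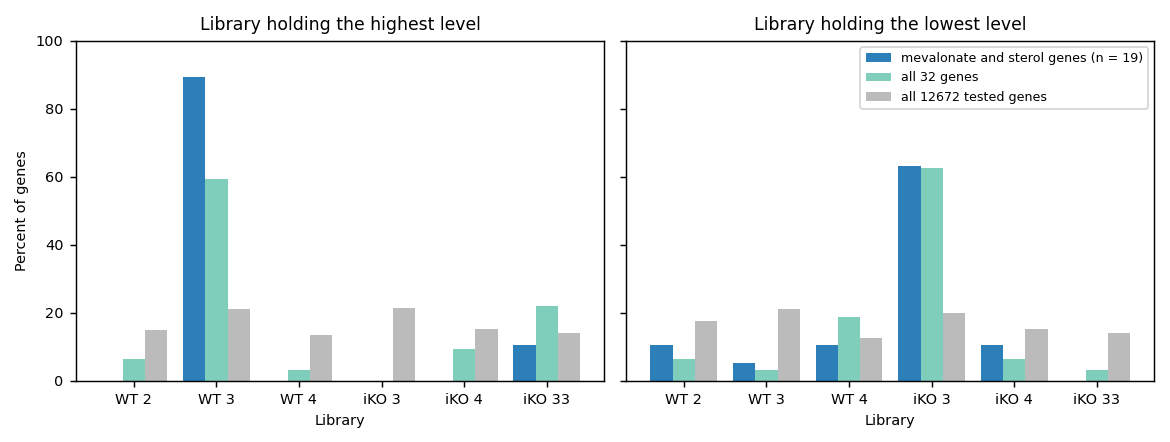
Percent of genes for which each library (horizontal axis) held the highest level (left) or the lowest level (right), for the 19 mevalonate and sterol genes, all 32 genes and all tested genes. WT 3 held the highest level of 89.5% of the mevalonate and sterol genes, and iKO 3 the lowest of 63.2%.

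The spread between libraries was wide. The highest library exceeded the lowest by a median factor of 2.24 over the 32 genes, compared with 1.62 over all tested genes. By role, that factor had a median of 2.54 in the mevalonate pathway, 1.95 in the sterol steps, 2.16 in fatty acid synthesis and 1.59 in the regulators and carrier. Scd1 spanned the widest range, a factor of 6.07, and Acaca, the acetyl-CoA carboxylase that starts fatty acid synthesis, the narrowest at 1.17. Relative to each gene's mean log2 CPM over the 6 libraries, the median deviation of the mevalonate genes was 0.76 in WT 3 and 0.28 in iKO 33, and -0.61 in iKO 3. For the sterol genes these values were 0.47, 0.33 and -0.46. WT 2, WT 4 and iKO 4 lay between, at 0.05, -0.18 and -0.26 for the mevalonate genes. The regulators and carrier had median deviations between -0.12 and 0.02 in all 6 libraries, but Insig1 and Stard4 among them ran with the pathway genes.

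**Figure D3:**
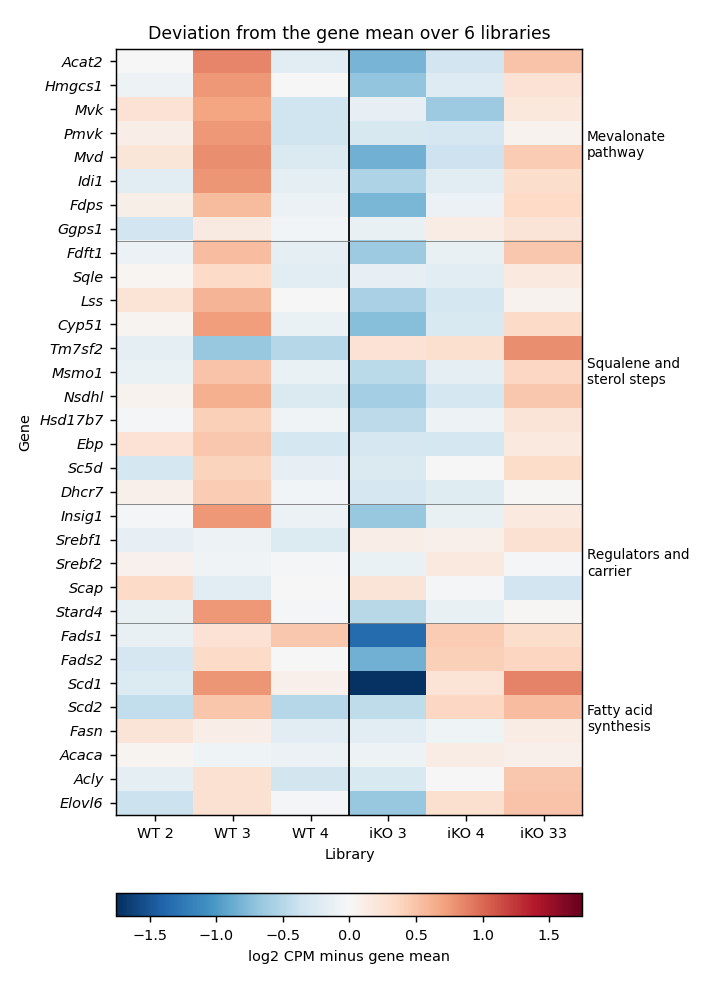
Colour gives log2 CPM minus the mean of that gene across libraries, with genes in pathway order as rows and libraries as columns. WT 3 is red and iKO 3 blue over most mevalonate and sterol genes, whereas Tm7sf2 shows the reverse between groups and Srebf2, Scap and Acaca show little of the pattern.

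Depth moved with this pattern only in the 2 deepest libraries. Among the other 4, WT 2 had the fewest reads and a mevalonate median deviation of 0.05. iKO 3 and iKO 4 had more reads and stood at -0.61 and -0.26. Both of the deepest libraries, WT 3 and iKO 33, lay above the other 4 for 18 of the 32 genes (56.2%), compared with 10.2% of all tested genes, and for 6 of 8 mevalonate genes. The part of depth in the library pattern was not tested. The median log2 fold change of the 32 genes between the groups was -0.20 with both left out and -0.19 with all 6 libraries, but -0.01 without WT 3 alone and -0.43 without iKO 33 alone. Between these 2 libraries, which gives no replicate check, 20 of the 32 genes (62.5%) were lower in iKO 33 than in WT 3, compared with 50.3% of all tested genes. That count was 17 of the 19 mevalonate and sterol genes (median log2 difference -0.31) and 0 of the 8 fatty acid genes (median 0.09).

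Because most of these genes are SREBP targets, their RefSeq promoter windows were searched on both strands for known motifs. The windows (build GRCm38.p6) ran from 250 bases before to 50 after the start site. The motifs were TCACNCCAC, the core of the classical sterol regulatory element, and CCAAT, the site of NF-Y. NF-Y is a factor that acts with SREBPs at many of these promoters. Whether a match goes with the library pattern was not tested. Windows were found for 25 of the 32 genes. TCACNCCAC was present in 1 of the 25 (4.0%), Hmgcs1, and in 1.44% of all 27025 genes with a window. CCAAT was present in 20 of the 25 (80%), compared with 41.1% of all genes. Those 27025 genes were not limited to genes that passed the filter on low counts, as all members did. Windows of 3 genes follow, 5′ to 3′ on the gene's strand: Hmgcs1 for its match, and Lss and Tm7sf2, chosen after their values were seen, as the member with the most negative and the member with the most positive fold change. Capitals mark TCACNCCAC (TCACCCCAC here) and CCAAT, which reads ATTGG on the opposite strand, and the marked letters of the motifs do not overlap.
Hmgcs1: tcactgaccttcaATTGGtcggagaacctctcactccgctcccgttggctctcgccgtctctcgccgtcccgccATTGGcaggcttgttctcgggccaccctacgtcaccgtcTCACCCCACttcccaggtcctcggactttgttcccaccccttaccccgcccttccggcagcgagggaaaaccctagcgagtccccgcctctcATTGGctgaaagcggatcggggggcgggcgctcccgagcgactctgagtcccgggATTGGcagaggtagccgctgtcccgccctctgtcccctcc
Lss: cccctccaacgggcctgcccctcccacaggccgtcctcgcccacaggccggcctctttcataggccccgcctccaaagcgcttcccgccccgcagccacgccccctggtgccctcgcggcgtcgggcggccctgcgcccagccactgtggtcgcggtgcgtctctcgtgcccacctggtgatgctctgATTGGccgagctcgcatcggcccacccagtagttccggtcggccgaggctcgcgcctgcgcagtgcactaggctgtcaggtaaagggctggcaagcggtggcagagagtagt
Tm7sf2: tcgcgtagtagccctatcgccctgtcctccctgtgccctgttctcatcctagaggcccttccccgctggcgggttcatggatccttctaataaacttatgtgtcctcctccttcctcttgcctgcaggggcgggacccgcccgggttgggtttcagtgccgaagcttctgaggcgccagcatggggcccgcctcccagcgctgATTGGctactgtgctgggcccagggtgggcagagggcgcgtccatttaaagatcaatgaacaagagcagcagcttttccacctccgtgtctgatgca
The windows are chr13:119690101-119690400 (plus strand), chr10:76531355-76531654 (plus strand) and chr19:6067801-6068100 (minus strand). Hmgcs1 held 1 sterol element core, its first base at position -137 from the start site, and 4 CCAAT matches, while Lss and Tm7sf2 held 1 CCAAT match each.

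The comparison the study was designed for is that between the groups, in keratinocytes with and without the Cre that deletes Gata6. By edgeR's quasi-likelihood test, with p-values adjusted over all genes after Benjamini-Hochberg and a threshold of 0.05, 0 of the 32 genes were called, and 0.339% of all tested genes were. An unadjusted p under 0.05 was reached by 3 of the 32 genes (9.38%), below the 15.0% of all tested genes. DESeq2 called 1 of the 32 (5.57% of genes with an adjusted p in DESeq2), and limma-voom called 0 (0.489% of tested genes). The groups did not overlap for 2 of the 32 genes, Tm7sf2 and Srebf1, both higher in the libraries labelled iKO, against 21.9% of all tested genes in either direction. Of the 32 fold changes, 22 were negative (68.8%, compared with 48.8% of all tested genes), with a median of -0.19 against 0.01 for all tested genes.

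The surplus of negative values changed with single libraries. Without WT 3, 17 of the 32 were negative and the median was -0.01. Without iKO 3, 19 were negative with a median of -0.06. Without iKO 33, 25 were negative with a median of -0.43. Without WT 4 the median was -0.29. By role, the median of the mevalonate genes was -0.09 without WT 3 and -0.19 without iKO 3, that of the sterol genes was 0.02 without WT 3, and that of the fatty acid genes was -0.10 without iKO 33 and 0.32 without iKO 3. The median SE of the 32 log2 fold changes was 0.28, compared with 0.19 over all tested genes.

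**Figure D4:**
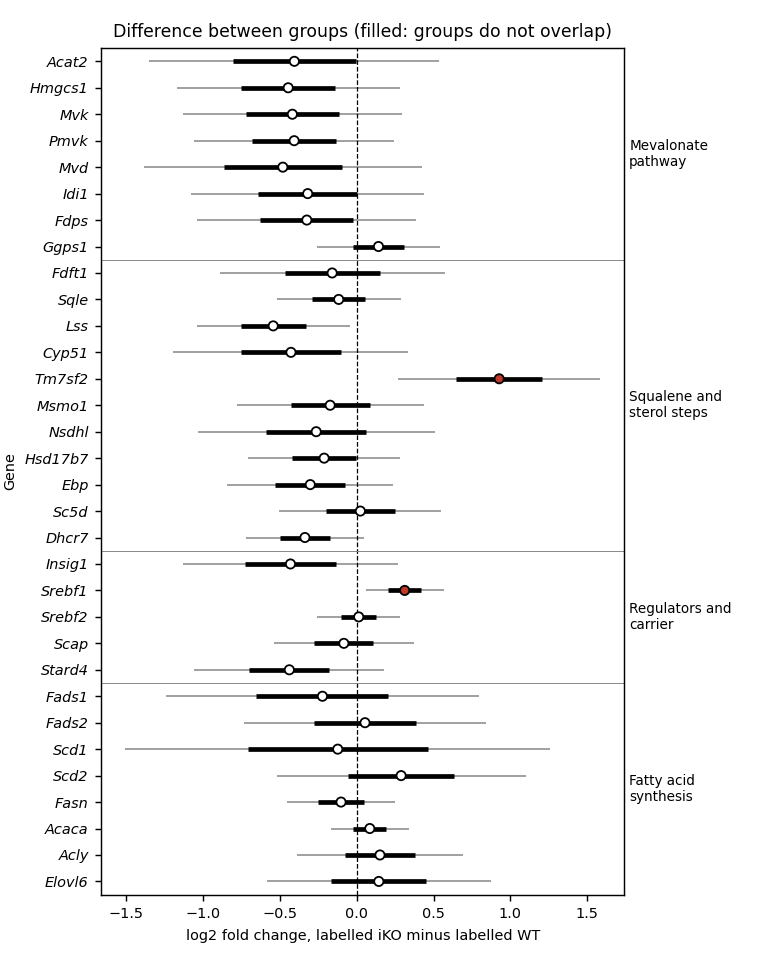
log2 fold change (labelled iKO minus labelled WT) of each of the 32 genes from edgeR, with thick bars of ± 1 SE and thin bars of the 95% interval. Filled points are the genes whose groups do not overlap, Tm7sf2 at 0.93 and Srebf1 at 0.31, and most mevalonate and sterol genes lie left of 0 with intervals that reach past it.

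In the mevalonate pathway, 7 of 8 genes had negative fold changes (median -0.41) and none passed in edgeR or DESeq2. Hmgcs1 (chromosome 13, 119690379 to 119708260, plus strand, mm10) measured 462, 832 and 487 CPM in WT 2, WT 3 and WT 4, and 304, 420 and 584 CPM in iKO 3, iKO 4 and iKO 33. WT 3 stood alone at the top and iKO 33 lay above WT 2 and WT 4, so the groups overlapped. The log2 fold change was -0.45 (SE 0.31, edgeR adjusted p = 0.551), and its 95% interval ran from -1.17 to 0.28.

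Acat2, the cytosolic thiolase that joins acetyl-CoA units, measured 59.5, 109 and 51.9 CPM in the libraries labelled WT, in the same order, and 33.9, 47.5 and 84.7 CPM in those labelled iKO. Its groups overlapped in the same way, with iKO 33 next to WT 3, and the log2 fold change was -0.41 (SE 0.40). The transcript of Acat2 matches that of Acat3 at 97.7% identity over 1477 of 2250 bases, and that of Tcp1 at 98.65% over 445 bases. The count of Acat2 is therefore uncertain.

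Mvd, the decarboxylase that yields isopentenyl diphosphate, gave the most negative value of the pathway, -0.48 (SE 0.38), from 67.0, 102 and 48.6 CPM in the libraries labelled WT to 32.3, 45.1 and 78.7 CPM in those labelled iKO. The kinases Mvk and Pmvk, which phosphorylate mevalonate in turn, stood at -0.42 (SE 0.30) and -0.41 (SE 0.28). For both, WT 3 was the only library well above the rest, at 105 and 67.9 CPM, and the other 5 ranged from 41.99 to 78.0 CPM for Mvk and from 31.7 to 43.5 CPM for Pmvk.

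Idi1 stood at 517 CPM in WT 3, with the other 5 libraries between 208 and 374 CPM. Its log2 fold change was -0.32 (SE 0.32), and it was 0.070 without WT 3. Fdps, which joins the isoprenoid units to farnesyl diphosphate, measured 146 CPM in iKO 3, with the other 5 libraries between 236 and 374 CPM (-0.32, SE 0.30). Near-identical transcripts (90% or more identity over at least 200 bases) of genes that the count table does not list exist for Fdps and Idi1. They also exist for Hmgcs1, Ggps1, Fdft1, Scap, Acaca and Elovl6. Whether they lie at the same place in the genome as these genes was not checked. How many reads align to more than 1 place is therefore not known, and the counts of all 8 are uncertain. For Acaca the match to Gm5182 covers 6118 of 9513 bases at 99.2% identity. Ggps1 was the 1 mevalonate gene with a positive value, 0.14 (SE 0.17), over a narrow range of 18.7 to 27.5 CPM.

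In the squalene and sterol steps, 9 of 11 genes had negative fold changes (median -0.21). Lss, the synthase that folds squalene epoxide into lanosterol (chromosome 10, 76531588 to 76557138, plus strand), measured 221, 282 and 186 CPM in the libraries labelled WT and 126, 151 and 195 CPM in those labelled iKO. Only iKO 33 reached into the range of the libraries labelled WT, above WT 4. The log2 fold change of -0.54 (SE 0.21, 95% interval -1.04 to -0.05) did not pass over all genes (edgeR adjusted p = 0.297, and 0.126 to 0.492 over the alternatives). It was -0.55 with the 2 deepest libraries left out.

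Dhcr7, the reductase whose product is cholesterol, showed a smaller difference of the same kind. It measured 58.5, 75.2 and 53.5 CPM in the libraries labelled WT and 44.8, 47.4 and 55.9 CPM in those labelled iKO (-0.34, SE 0.16, edgeR adjusted p = 0.392). Here too only iKO 33 overlapped the libraries labelled WT. Cyp51 ran from 156 CPM in iKO 3 to 434 CPM in WT 3, with 330 CPM in iKO 33 (-0.43, SE 0.32).

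The squalene synthase gene Fdft1 and the squalene epoxidase gene Sqle stood at -0.16 (SE 0.31) and -0.12 (SE 0.17). Fdft1 shares 18.3% of its exon bases with Ctsb on the opposite strand, and Ctsb stood at 0.03 (SE 0.14). Msmo1, Nsdhl and Hsd17b7, which remove the methyl groups of lanosterol, stood at -0.17 (SE 0.26), -0.26 (SE 0.33) and -0.21 (SE 0.21). The sterol isomerase gene Ebp stood at -0.30 (SE 0.23) and the desaturase gene Sc5d at 0.02 (SE 0.22). Nsdhl and Ebp lie on the X chromosome, whose dosage can differ between the sexes. The part of sex in their values was not tested, as sex and genotype label cannot be told apart. Without WT 3, Fdft1, Sqle, Msmo1, Nsdhl and Sc5d had positive values, between 0.016 and 0.26.

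Tm7sf2 (chromosome 19, 6062821 to 6068373, minus strand) was the exception among the sterol genes. It measured 2.72, 1.92 and 2.16 CPM in the libraries labelled WT and 3.68, 3.75 and 5.42 CPM in those labelled iKO. Every library labelled iKO was higher than every library labelled WT, and WT 3, the library with the highest level of 10 of the 11 sterol genes, had the lowest level of Tm7sf2. The log2 fold change was 0.93 (SE 0.28, 95% interval 0.27 to 1.58). The adjusted p was 0.201 in edgeR, 0.158 in limma-voom and 0.0318 in DESeq2, so only DESeq2 called the gene, and over all alternatives it ranged from 0.0318 to 0.541. In the authors' deposited table it had an adjusted p of 0.0269, the 1 of these 32 genes under 0.05 there. With the 2 deepest libraries left out the value was 0.61. Tm7sf2 shares 12.1% of its exon bases with Vps51 on the same strand. Vps51 measured 26.3 to 38.6 CPM and stood at 0.26 (SE 0.14) with overlapping groups. How many reads of Vps51 were counted for Tm7sf2 was not examined, so the count of Tm7sf2 is uncertain.

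Among the regulators, the SREBP genes themselves did not follow the library pattern of their targets. Srebf1, which encodes the SREBP isoforms that favour fatty acid genes (chromosome 11, 60199089 to 60222581, minus strand), measured 63.0, 65.4 and 58.6 CPM in the libraries labelled WT and 75.6, 73.5 and 83.2 CPM in those labelled iKO. The groups did not overlap, and the spread within each was small. The log2 fold change of 0.31 (SE 0.11, 95% interval 0.06 to 0.57) did not pass over all genes (edgeR adjusted p = 0.253, and 0.165 to 0.509 over the alternatives). It remained between 0.26 and 0.35 whichever library was left out.

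Srebf2, the isoform that favours cholesterol genes, stood at 226 to 247 CPM in the libraries labelled WT and 216 to 264 CPM in those labelled iKO. The log2 fold change was 0.01 (SE 0.11), with a 95% interval of -0.26 to 0.28, and its sign was not fixed, as it was -0.0040 with libraries scaled by their totals alone. Scap, the escort protein of the SREBPs, stood at -0.08 (SE 0.19) and ran from 166 CPM in iKO 33 to 265 CPM in WT 2.

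Insig1, the sterol-responsive retention protein that is itself an SREBP target, measured 86.0, 149 and 81.6 CPM in the libraries labelled WT and 55.4, 80.3 and 99.1 CPM in those labelled iKO. The profile was that of Hmgcs1, high in WT 3 and low in iKO 3, and the log2 fold change was -0.43 (SE 0.30, edgeR adjusted p = 0.550). Stard4, a sterol carrier, stood at 106 CPM in WT 3 with the other 5 libraries between 44.6 and 63.5 CPM (-0.44, SE 0.26).

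Of the 8 genes of fatty acid synthesis, 5 had positive fold changes (median 0.07), none passed in edgeR or DESeq2, and 0 had an unadjusted p under 0.05 in edgeR. Whether this median differs from that of the sterol genes was not tested. iKO 33 held the highest level of 4 of the 8 genes and WT 3 of 0. iKO 3 held the lowest level of 5 of these 8 genes and of 7 of the 11 sterol genes.

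The desaturase genes Scd1, Fads1 and Fads2 had their lowest level in iKO 3, and Scd2 had its lowest in WT 4. Scd1, a stearoyl-CoA desaturase known for its role in sebaceous glands, measured 35.5, 71.3 and 44.5 CPM in the libraries labelled WT and 12.7, 49.3 and 76.8 CPM in those labelled iKO. iKO 3 was the lowest library by far, and iKO 33 the highest. The log2 fold change of -0.12 (SE 0.59) had a 95% interval of -1.51 to 1.26 and was 0.32 without iKO 3 and 0.21 without WT 3. Fads1, a desaturase of polyunsaturated fatty acids, measured 23.5 CPM in iKO 3, with the other 5 libraries between 55.0 and 83.2 CPM (-0.22, SE 0.43; 0.16 without iKO 3). Fads2, its partner in the same pathway, measured 51.8 CPM in iKO 3 and 75.7 to 123 CPM in the other 5 (0.05, SE 0.33).

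Scd2 was the dominant desaturase in every library. It measured 837, 1569 and 793 CPM in the libraries labelled WT and 827, 1441 and 1641 CPM in those labelled iKO (0.29, SE 0.34). Per kb of exon, Scd2 made up 94.1% to 95.5% of the summed level of Scd1 and Scd2 in the libraries labelled WT, and 98.3%, 96.3% and 95.03% in iKO 3, iKO 4 and iKO 33. The transcripts of Scd2 and Scd1 match at 95.5% identity over 623 bases, and those of Scd1 and Scd3 at 91.4% over 1053 bases. How many reads are shared among them was not examined, so the split between these genes is uncertain. The 9 sebocyte markers summed to 4.35 to 5.90 CPM in the libraries labelled WT and 2.44 to 3.07 CPM in those labelled iKO, with no overlap and with Awat1 and Elovl3 at 0, and the 3 that were tested all had negative fold changes with 0 called by edgeR. The 8 adipocyte markers summed to 10.4 to 12.97 and 9.02 to 12.7 CPM, with Cidec at 0. The part of such cells in the levels of Scd1, Fads1 and Fads2 was not tested, and in bulk libraries fewer cells of a type and less RNA per cell cannot be told apart.

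Fasn, the fatty acid synthase, stood at 433 to 579 CPM in the libraries labelled WT and 431 to 543 CPM in those labelled iKO (-0.10, SE 0.15). Acaca had the narrowest interval of the group, 0.09 (95% interval -0.17 to 0.34). Acly stood at 376 to 563 CPM in the libraries labelled WT and 389 to 651 CPM in those labelled iKO (0.15, SE 0.23), and the elongase gene Elovl6 at 0.14 (SE 0.31). The highest library exceeded the lowest by a factor of 1.34 for Fasn and 1.73 for Acly, but 2.25 for Elovl6, which ran from 28.5 CPM in iKO 3 to 64.1 CPM in iKO 33.

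Of 54 other genes of the same pathways, 50 passed the filter, 25 of them with a positive and 25 with a negative fold change. edgeR called 0 of the 50, and 7 (14%) had an unadjusted p under 0.05, near the 15.0% of all tested genes. DESeq2 called 2 of the 50, against a background of 5.57%, and the groups did not overlap for 10 of the 50, against 21.9%. Of 15 other tested genes of sterol synthesis and its control, 8 were positive and 7 negative (median 0.06). Tmem97, a sterol-regulated membrane protein gene, measured 99.8, 89.1 and 76.7 CPM in the libraries labelled WT and 60.5, 68.0 and 65.3 CPM in those labelled iKO, with no overlap (-0.46, SE 0.13, edgeR adjusted p = 0.183). Mbtps1, the protease that makes the first cut in SREBPs, stood at 0.26 (SE 0.11) with no overlap, and the mitochondrial thiolase gene Acat1 at -0.29 (SE 0.17).

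Of 11 tested genes of sterol efflux, storage and oxidation, 8 were positive (median 0.25). Abca1, the transporter that exports cholesterol to lipoproteins, measured 0.876, 1.33 and 1.54 CPM in the libraries labelled WT and 5.63, 2.71 and 6.66 CPM in those labelled iKO. The groups did not overlap, and the log2 fold change of 1.99 (SE 0.41) had an adjusted p of 0.110 in edgeR and 0.000163 in DESeq2, with a range of 0.000163 to 0.397 across alternatives. Abcg1, a related sterol exporter, stood at 0.64 (SE 0.29) with overlapping groups. It measured 30.2 CPM in iKO 3 and 11.7 to 16.9 CPM in the rest, and its value fell as low as 0.28 with a single library left out. Nr1h2, which encodes the sterol-sensing liver X receptor beta, stood at 0.29 (SE 0.10) with no overlap. Cyp27a1, a sterol hydroxylase, measured 0.922, 1.54 and 0.256 CPM in the libraries labelled WT and 0.0959, 0.133 and 0.200 CPM in those labelled iKO (-2.60, SE 0.69; DESeq2 adjusted p = 0.0248, and edgeR adjusted p = 0.172). A single read was worth 0.0118 to 0.0461 CPM in these libraries, so the levels of Cyp27a1 labelled iKO rest on few reads.

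Of 24 other tested fatty acid genes, 9 were positive and 15 negative (median -0.04). Elovl4, the elongase of the very long chains found in barrier ceramides, measured 67.8, 68.3 and 58.5 CPM in the libraries labelled WT and 145, 78.2 and 99.9 CPM in those labelled iKO, with no overlap (0.73, SE 0.22, edgeR adjusted p = 0.209). iKO 3, the library lowest in Scd1 and Fads1, was the highest in Elovl4. Elovl5, an elongase of polyunsaturated chains, stood at -0.61 (SE 0.27) with no overlap and its lowest level, 24.7 CPM, in iKO 3. Hacd2 (listed under its older symbol Ptplb), a dehydratase of the elongation cycle, stood at 0.45 (SE 0.14) and Mcat, of mitochondrial fatty acid synthesis, at -0.47 (SE 0.14), both with no overlap. None of the 4 passed in edgeR or DESeq2.

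**Figure D5:**
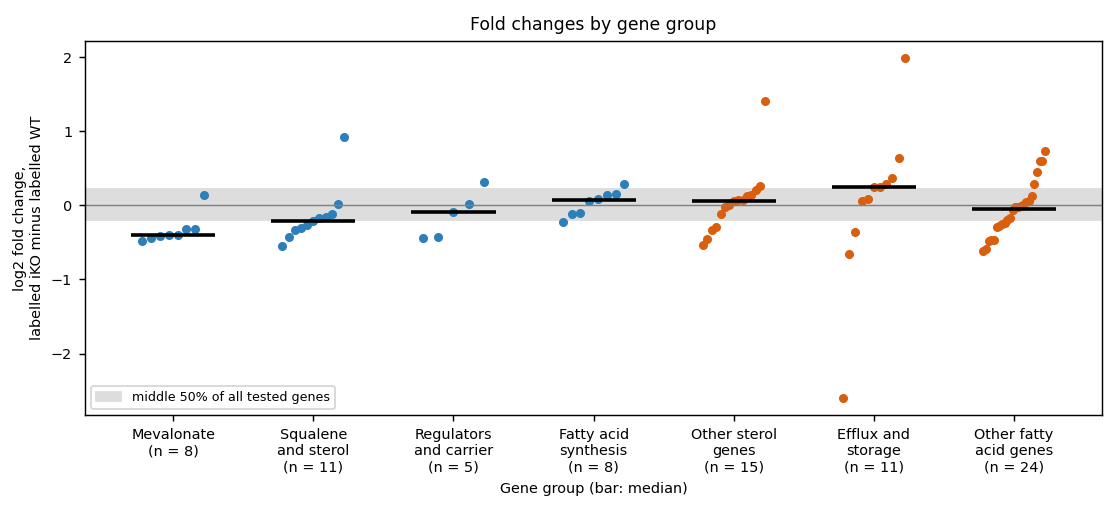
log2 fold change (labelled iKO minus labelled WT) of each tested gene by group, with a bar at each median and a grey band over the middle 50% of all tested genes. The mevalonate genes lie lowest as a group, at a median of -0.41, and the largest single values are those of the low-level genes Abca1 (1.99) and Cyp27a1 (-2.60).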

How the data were processed

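Per the labels' protocols, TruSeq RNA v2 libraries were prepared from TRIzol-extracted RNA of 3 WT and 3 iKO samples. TopHat2, HTSeq, DESeq2, DESeq and the build mm10 are listed in the submitters' processing notes, without versions, annotation or strand setting. The authors deposited whole-number counts per gene symbol and a table that, per the file headers, is a DESeq2 result holding, for each gene, a normalised signal (mean), log2 fold change with SE, Wald score and p-values. The 5 HTSeq summary rows (27.4% to 35.5% of all counts per library) entered neither library sizes nor tests. Column names gave the library; the column numbered 33 matches no iKO title, no column matches the title iKO2, and column 33 was used as an iKO library without a replicate number.

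The main test was that of edgeR 4.0.16 in R 4.3.3 (filterByExpr with a minimum count of 10, which left 12672 genes, TMM factors, robust glmQLFit and glmQLFTest, group as the only term, two-sided, Benjamini-Hochberg over all genes at 0.05). The SE of a fold change is its size divided by the square root of F. log2 CPM values use a prior count of 2. DESeq2 1.42.0, run on all genes with its own filter, and limma-voom (limma 3.58.1) were alternatives, with other scaling, filters, a replicate block and each library left out. Leaving out or blocking the 2 deepest libraries was added after seeing the data. Tested on simulated counts of this comparison (12523 genes), edgeR found 61 of 100 genes with 2-fold and 96 of 100 with 4-fold changes and made 11 false calls. DESeq2 found 81 and 98 with 44 false calls, and with no gene changed it made 13 false calls among 12544 genes, where edgeR made 0. Changed genes were drawn only from those at higher levels, and each gene was simulated on its own. The recovery rates therefore do not cover low-level genes such as Tm7sf2, Abca1 and Cyp27a1, or genes that share a library pattern. Replicates of a group differed by more than sampling noise in every pair (chi-square per degree of freedom of 50.0 or more).

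The members and lists were chosen with earlier results of these data known, so no list was tested as a set and none was adjusted on its own. Named were all 32 members, up to 4 genes with the smallest p of each of 3 lists of other pathway genes, Gata6, Krt5 and Krt14; 1 gene that this rule takes is not reported here. Xist, Vps51, Ctsb, Trp63, Cdh1 and Kdr were added after their values were seen. Gene positions, exon lengths and transcript matches (blastn, 90% identity over 200 bases) come from GENCODE M21 on mm10, and 99.3% of symbols were given a chromosome from RefSeq.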

Additional observations from a re-analysis of the deposited data

How the results depend on the processing

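No member passed in edgeR under any alternative run, and Tm7sf2 passed in DESeq2, the 1 member called there. DESeq2 called 757 genes in all and 2 of the other pathway genes, compared with 43 and 0 in edgeR. The count over all genes was 76 with no count filter and 9 with the 2 deepest libraries left out, and it ranged from 7 to 31 when each library was left out in turn (WT 2, WT 3 and WT 4 gave 7, 31 and 21; iKO 3, iKO 4 and iKO 33 gave 20, 13 and 17). The looser motif TCACNCNAC was found in the windows of 2 of the 25 members with a window (8%), compared with 3.145% of all genes with a window. Of 574 member values under 18 alternatives, 541 kept their direction and their side of the threshold, 32 changed sign and 1 passed; 17 of the 32 members changed sign in none.

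The sample titles number both groups 2, 3 and 4, but no count column carries the number of iKO 2, so only numbers 3 and 4 could be matched across groups. The labels do not say that a number marks a shared batch or animal. Deviations of same-numbered libraries correlated at 0.60 across genes, which are not independent. With a replicate block on these 4 libraries edgeR called 103 genes and none of the members, and the members' median was -0.48, with 27 negative. In that fit signs changed for Ggps1 (-0.056), Sc5d (-0.26), Scap (0.21), Fads2 (-0.37), Scd2 (-0.032), Acly (-0.11) and Elovl6 (-0.31); it uses fewer samples, and the cause was not tested. Fads2 stood at -0.024 in limma-voom, and Srebf2 at -0.0040 with library totals only.

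Leaving out each library in turn changed the sign of Idi1 (-0.58 to 0.070), Fdft1 (-0.50 to 0.10), Sqle (-0.25 to 0.031), Msmo1 (-0.43 to 0.062), Nsdhl (-0.64 to 0.016), Sc5d (-0.15 to 0.26), Srebf2 (-0.072 to 0.074), Scap (-0.23 to 0.077), Fads1 (-0.51 to 0.16), Fads2 (-0.14 to 0.36), Scd1 (-0.70 to 0.32), Acly (-0.078 to 0.34) and Elovl6 (-0.093 to 0.42). Depth limits mainly the low-level genes, since 1 read is worth 0.0118 to 0.0461 CPM, counting error only.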
